A study of Mus musculus with 4 samples.

Results

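The messenger RNA levels of 5 kinases of the mitogen-activated protein kinase (MAPK) pathway, Map2k3, Map2k6, Mapk6, Mapkapk3 and Pak1, and of the MAPK phosphatase Dusp2 were examined in large intestinal group 3 innate lymphoid cells (ILC3s) with and without activation of death receptor 3 (DR3). These 6 genes were taken by symbol from the 2179 genes of the deposited comparison, and all 6 were found. Littermate Rag1-/- mice with a GFP reporter received PBS or 1 µg of α-DR3, an agonistic antibody, and lineage-negative GFP+ cells of the large intestinal lamina propria were sorted on day 3. Both groups lacked Rag1, and therefore mature T and B cells, and both carried the reporter, which marks ILC3s within the lineage-negative gate. The control received PBS and not a control antibody. Each group had 2 libraries, each made from the pooled cells of several mice.

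The values are fragment counts scaled to transcript length and library size (FPKM), averaged by the authors over the libraries of a group. The deposited columns used here hold no value of a single library, and the single-library FPKM that accompany the paper were not used here. No spread, interval or p-value is therefore given for any value, and whether the libraries of the groups overlap was not examined. The depth of the libraries is unknown from these columns. Each gene of the deposited table had a p-value under 0.05 in the authors' own comparison of the same groups, and the smallest value of a gene's larger group mean was 1.005 FPKM. A listed gene was thus chosen for differing between the groups, and that a member differs is not a finding. In such bulk samples, fewer cells of a type and less RNA per cell cannot be told apart.

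MAPK cascades relay signals from surface receptors through successive kinases. A MAP3 kinase activates a MAP2 kinase, which in turn phosphorylates a MAP kinase of the ERK, JNK or p38 class. MAP2K3 and MAP2K6 are the dedicated activators of p38, MAPKAPK3 is a kinase that p38 activates, PAK1 is an effector of the small GTPases Rac and Cdc42, MAPK6 is the atypical MAP kinase ERK3, and DUSP2 is a nuclear phosphatase that removes the activating phosphates from MAP kinases. DR3 recruits adaptor proteins of the TRAF family and can activate both NF-κB and MAP kinases in lymphocytes.

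Of the 6 genes, 3 had a higher and 3 a lower mean in ILC3s from α-DR3-treated mice. A ratio of group means of at least 1.5 was reached upward by 2 of them, Pak1 and Mapkapk3, and downward by another 2, Map2k6 and Dusp2. Over all listed genes 37.1% were past this limit upward, 38.4% downward and 75.4% either way, so 4 of 6 is close to the background. The members' contrast is the one that chose the listed genes, and nothing is read from these counts. At a limit of 2, Pak1 was past it upward, beside 20.5% of all listed genes, and Map2k6 and Dusp2 downward, beside 11.8%. All 6 were past a limit of 1.2, which 54.2% of the listed genes passed upward and 45% downward. The median log2 ratio was 0.00 over the 6 genes and 0.39 over all listed genes. Map2k3 and Mapk6 stood just inside the limit on opposite sides, at 1.47-fold higher and 1.48-fold lower.

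**Figure D1:**
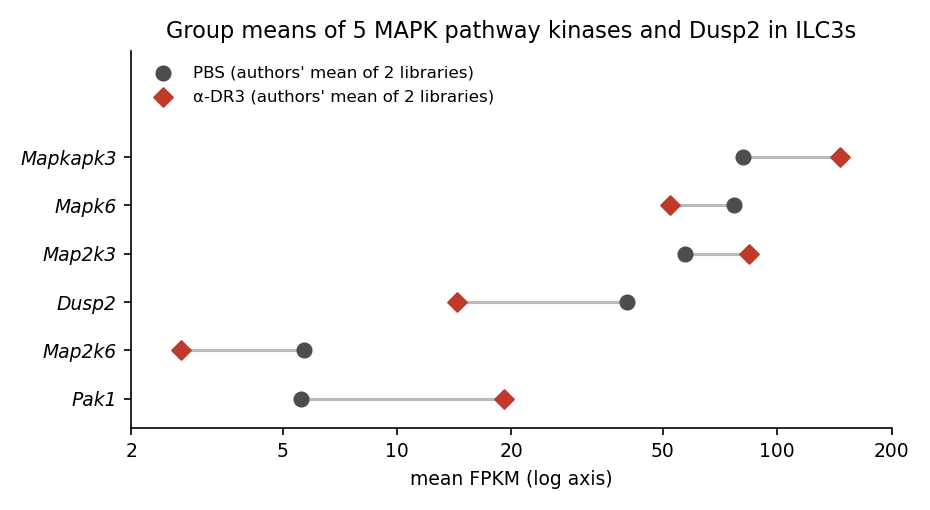
Mean FPKM of the 6 genes on a log axis, with grey circles for PBS, red diamonds for α-DR3 and a line joining the means of a gene. Mapkapk3, Map2k3 and Pak1 lie to the right of their PBS means, and Mapk6, Dusp2 and Map2k6 to the left. Each point is the authors' mean of 2 libraries, for which no spread was used.

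The p38-activating kinases differed between the groups in opposite directions. Map2k3 (ENSMUSG00000018932.3; chr11:60932033-60952811, plus strand, GRCm38) had a mean of 57.2 FPKM in PBS and 84.4 FPKM in α-DR3, a difference of 0.56 on the log2 scale. Map2k6 (ENSMUSG00000020623.5; chr11:110399122-110525522, plus strand) had a mean of 5.68 FPKM in PBS and 2.71 FPKM in α-DR3, a log2 ratio of -1.07 or 2.10-fold lower. Both genes lie on chromosome 11, and their main coding transcripts have 12 exons each. These encode proteins of 347 residues for Map2k3 and 334 residues for Map2k6, yet the Map2k6 gene spans 126401 bases and Map2k3 20779.

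Map2k3 was the more abundant transcript of the pair in both groups. FPKM is a level per transcript length, so the pair can be compared within a group. The Map2k3 level was 10.1 times that of Map2k6 in PBS and 31.1 times in α-DR3, which is a 3.09-fold larger ratio. Map2k6 made up 9.03% of the summed level of the pair in PBS and 3.11% in α-DR3. The summed level of the pair was 62.9 FPKM in PBS and 87.1 FPKM in α-DR3, or 1.38-fold higher. Mapk14, the gene of p38α, on which both kinases act, had 9.70 FPKM in PBS and 14.5 FPKM in α-DR3. The level of Map2k3 over that of Mapk14 was accordingly 5.90 in PBS and 5.84 in α-DR3, whereas that of Map2k6 over Mapk14 was 0.586 and 0.188.

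Reads of the pair were not interchangeable at the read length of 50 bases. None of the 2149 different 50-base stretches in the coding transcripts of Map2k3 and none of the 2938 in those of Map2k6 occurred in a transcript of any other gene of GENCODE M21, including each other. The same held for Mapkapk3, Pak1 and Dusp2. Of the 4182 stretches of Mapk6, 335 (8.01%) also occurred in the processed pseudogene Gm49037, so a part of the Mapk6 reads could be shared with it. No exon of the 6 genes overlapped an exon of another gene on either strand.

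Mapkapk3 (ENSMUSG00000032577.9; chr9:107254927-107289877, minus strand) was the most abundant of the 6 transcripts in both groups. Its mean was 81.1 FPKM in PBS and 146 FPKM in α-DR3, which is 1.81-fold higher with a log2 ratio of 0.85. Mapkapk2, the closely related kinase through which p38 stabilises cytokine messenger RNAs, was higher as well, with 33.0 FPKM in PBS and 47.8 FPKM in α-DR3, or 1.45-fold. The summed level of these p38-activated kinases was 114 FPKM in PBS and 194 FPKM in α-DR3. Within that sum Mapkapk2 took 28.9% in PBS and 24.6% in α-DR3, so Mapkapk3 was the larger component in both groups.

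**Figure D2:**
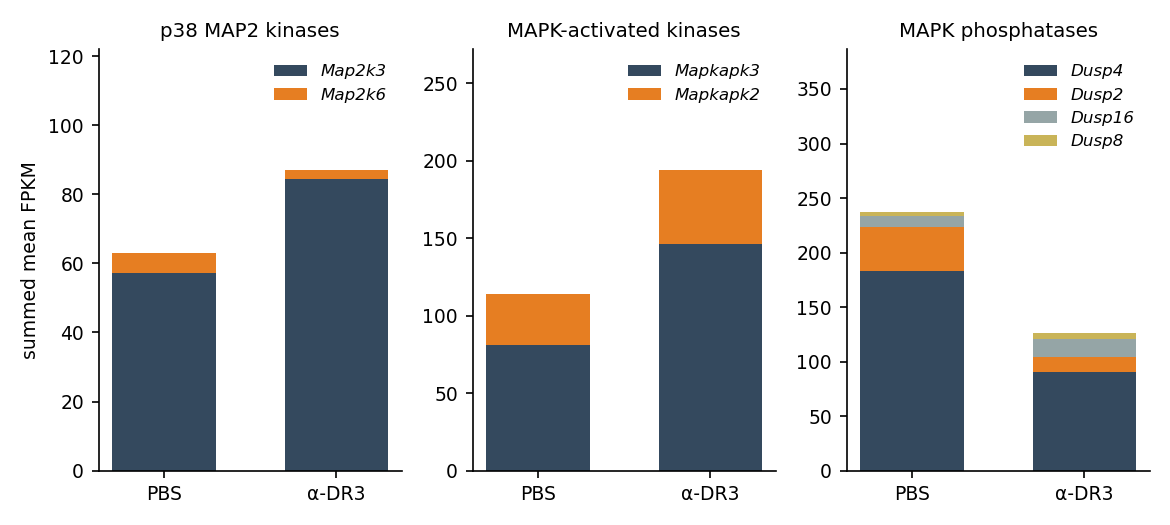
Stacked bars of mean FPKM in PBS and α-DR3 for the p38 MAP2 kinases, the MAPK-activated kinases and the listed MAPK phosphatases, each axis starting at 0. The first and second sums are higher in α-DR3 (87.1 against 62.9 FPKM and 194 against 114 FPKM), and the phosphatase sum is lower (126 against 238 FPKM).

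Pak1 (ENSMUSG00000030774.6; chr7:97788541-97912381, plus strand) showed the largest ratio of the 6 genes. Its mean was 5.59 FPKM in PBS and 19.1 FPKM in α-DR3, a 3.42-fold higher level with a log2 ratio of 1.77. Among the 2179 listed genes 201 had a higher ratio. In PBS the level of Pak1 was nearly that of Map2k6, at 0.984 times it, and in α-DR3 it was 7.05 times that of Map2k6. Of the 7 PAK genes looked for, Pak1 was the one in the table. The GTPases and adaptors that act on PAK1 were represented by 3 of 12 genes. Rac2, the haematopoietic Rac, had 290.2 FPKM in PBS and 407 FPKM in α-DR3, a log2 ratio of 0.49 that was -0.01 when the groups were divided by their sums over listed genes. Rhoq had 1.59 FPKM in PBS and 2.76 FPKM in α-DR3, and the adaptor Nck2, which binds PAK1, had 0.68 FPKM and 1.89 FPKM.

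Mapk6 (ENSMUSG00000042688.10; chr9:75369062-75410005, minus strand) was lower in α-DR3. Its mean was 77.0 FPKM in PBS and 52.2 FPKM in α-DR3, a log2 ratio of -0.56. It was thus the listed MAP kinase with the highest level in both groups. Its place relative to Map2k3 was reversed, since the level of Map2k3 was 0.743 times that of Mapk6 in PBS and 1.62 times in α-DR3.

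Dusp2 (ENSMUSG00000027368.6; chr2:127336159-127338376, plus strand) had the lowest ratio of the 6 genes. Its mean was 40.2 FPKM in PBS and 14.4 FPKM in α-DR3, which is 2.79-fold lower with a log2 ratio of -1.48. Among the listed genes 58 had a lower ratio. The level of Mapk14 was 0.241 times that of Dusp2 in PBS and 1.00 times in α-DR3.

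Other MAPK phosphatases did not all share the direction of Dusp2. Of 10 such genes 4 were listed, 2 of them lower and 2 higher, beside 45.4% lower and 54.6% higher over all listed genes. Dusp4, a nuclear phosphatase of the same subfamily as Dusp2, had 183 FPKM in PBS and 90.1 FPKM in α-DR3, or 2.03-fold lower. The JNK- and p38-directed phosphatases were higher, with Dusp16 at 10.3 FPKM in PBS and 16.0 FPKM in α-DR3 and Dusp8, counted under its identifier in GENCODE M21, at 3.83 FPKM and 5.49 FPKM. Dusp4 supplied most of the summed level of the 4 phosphatases, 77.2% in PBS and 71.5% in α-DR3, and Dusp2 supplied 16.9% and 11.4%. That sum was 238 FPKM in PBS and 126 FPKM in α-DR3, or 1.89-fold lower.

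The order of the 6 levels differed between the groups. From highest to lowest it was Mapkapk3, Mapk6, Map2k3, Dusp2, Map2k6 and Pak1 in PBS, and Mapkapk3, Map2k3, Mapk6, Pak1, Dusp2 and Map2k6 in α-DR3. Without a spread given here, neighbours such as Map2k6 and Pak1 in PBS or Pak1 and Dusp2 in α-DR3 cannot be separated. The level of Map2k6 exceeded that of 35.7% of the listed genes in PBS and of 19.0% in α-DR3, while that of Pak1 exceeded 35.3% and 65.9%. Mapkapk3 stood above 90.6% of them in PBS and 94.1% in α-DR3.

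The abundance in fragments shows how much sequence lay behind these levels. The authors' mean log2 CPM over all 4 libraries corresponded to 281 CPM for Mapkapk3, 198 for Mapk6, 135 for Map2k3, 37.6 for Dusp2, 30.3 for Pak1 and 7.88 for Map2k6. Map2k6 was therefore the member with the fewest fragments and the one whose mean is least precise by counting alone. Dividing this abundance by the mean FPKM gave implied lengths of 1907 bases for Map2k3 and 1879 bases for Map2k6. These were 86.8% and 90.9% of the main coding transcripts of the genes in GENCODE M21. Such a quotient also carries any difference in library scaling between CPM and FPKM, so it is not a measured transcript length. The same order of mean levels over both groups was found when the abundance was divided by the gene lengths of the table.

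**Figure D3:**
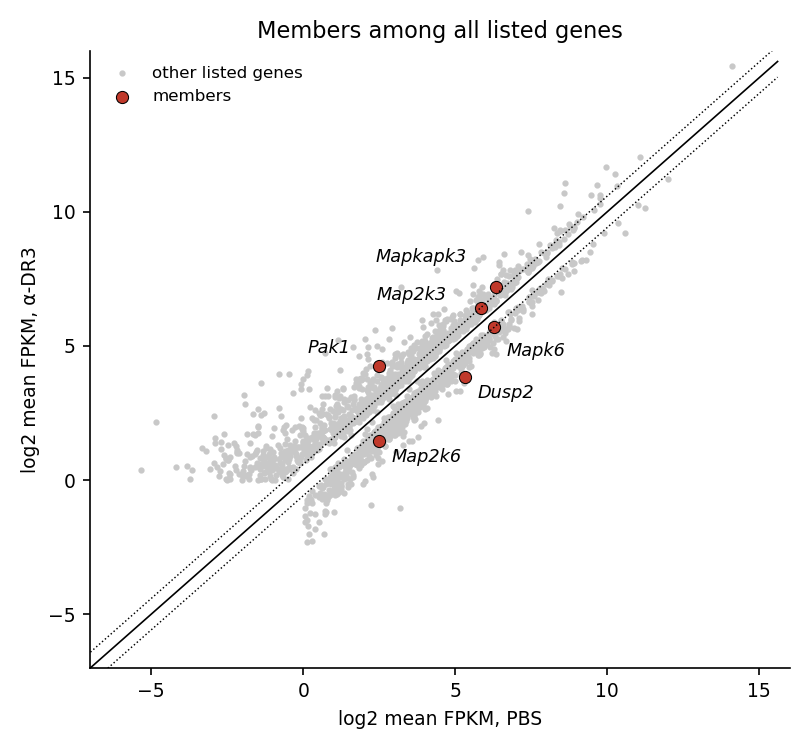
Log2 mean FPKM in α-DR3 against PBS for the listed genes with both means above 0, with the members in red, the line of equal means and dotted lines at a 1.5-fold ratio. Pak1 and Mapkapk3 lie above the upper dotted line, Dusp2 and Map2k6 below the lower one, and Map2k3 and Mapk6 just inside. The gap along the diagonal is the selection of the table.

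The other genes of the pathway were read from a list of 110 kinases, phosphatases and scaffolds, of which 18 were in the table, the 6 members included. The remaining 92 were not analysed here. Of the 18 genes 13 were higher in α-DR3 and 5 lower, beside 54.6% higher and 45.4% lower over all listed genes. A ratio of at least 1.5 was reached upward by 6 of them (33.3%) and downward by 4 (22.2%), beside 37.1% and 38.4% of all listed genes. With the median log2 ratio set to 0 or with equal sums, 3 were past it upward and 5 downward. Over all listed genes the upward share was then 21.1% or 18.4%, and the downward share 45.3% in both cases. With equal sums without Il22, 5 genes of the list were past the limit upward and 5 downward. The share over all listed genes was not computed for that scaling, so nothing is read from these counts. With the deposited means, the median log2 ratio of the 18 genes was 0.53, against 0.39 over all listed genes. Without the members, 10 of 12 were higher.

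Among MAP kinases, Mapk10, the gene of JNK3, had 11.9 FPKM in PBS and 23.0 FPKM in α-DR3, or 1.93-fold higher. Upstream, Map3k7, the gene of TAK1, which couples TRAF proteins to the p38 and JNK cascades, had 2.90 FPKM in PBS and 3.61 FPKM in α-DR3, and Map4k4 had 5.70 FPKM and 7.92 FPKM. Tab1, whose product binds TAK1 and can also activate p38α directly, was 1.69-fold lower, with 6.24 FPKM in PBS and 3.69 FPKM in α-DR3. The JNK scaffold gene Mapk8ip1 had 0.57 FPKM in PBS and 1.72 FPKM in α-DR3, and Mapkap1, a subunit of the mTORC2 complex, had 7.36 FPKM and 9.5 FPKM. The atypical phosphatase gene Dusp15 had a low level, with 0.14 FPKM in PBS and 1.4 FPKM in α-DR3. The higher means of Map3k7 and Mapkap1 became lower ones when the median log2 ratio of listed genes was set to 0, and so did those of Map3k7, Mapkap1 and Map4k4 when the sums over listed genes were set equal.

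**Figure D4:**
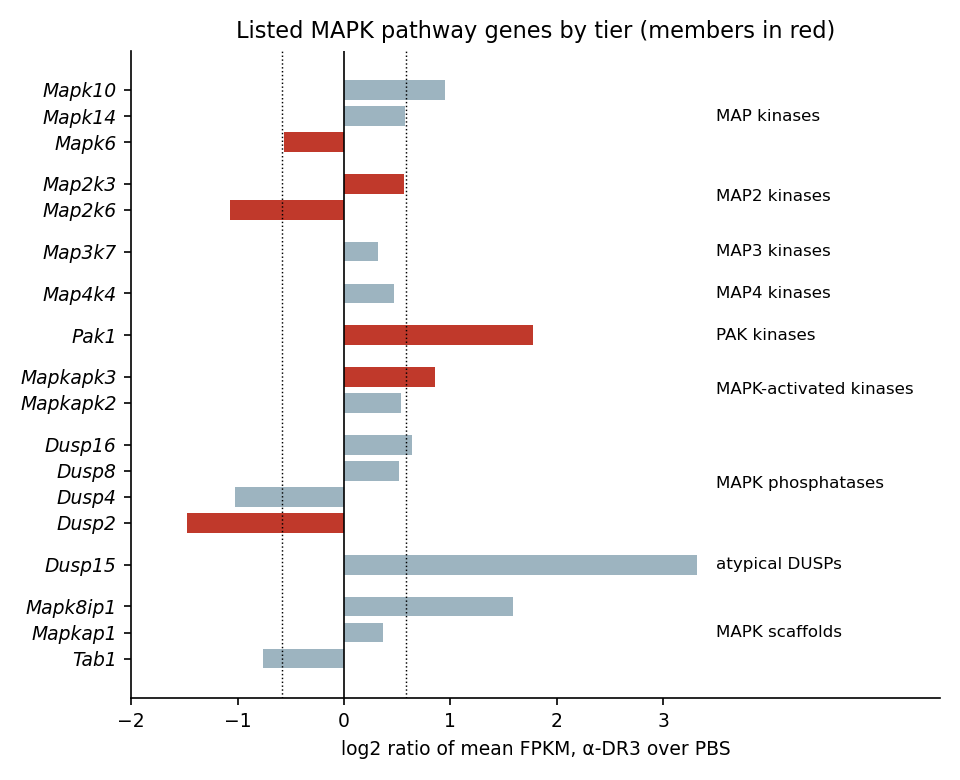
Log2 ratio of mean FPKM (α-DR3 over PBS) for the 18 listed genes of the MAPK list, grouped by tier, with the members in red and dotted lines at a 1.5-fold ratio. The bars of the MAP2 kinases Map2k3 and Map2k6 point in opposite directions, as do those of the phosphatases Dusp16 and Dusp2. The longest bar, Dusp15, starts from a mean of 0.14 FPKM in PBS.

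At the receptor, Tnfrsf25, which encodes DR3 itself, had 114.5 FPKM in PBS and 140.1 FPKM in α-DR3, a log2 ratio of 0.29 that became -0.09 with the median ratio set to 0 and -0.20 with equal sums. Of 13 genes of the receptor complex 6 were listed, 4 higher and 2 lower, beside 54.6% higher and 45.4% lower over all listed genes. Traf1 had 438 FPKM in PBS and 700.1 FPKM in α-DR3, and Traf3 had 12.9 FPKM and 30.6 FPKM. The ubiquitin ligase genes Birc2 and Birc3 differed in direction, with Birc2 at 70.3 FPKM in PBS and 111 FPKM in α-DR3 and Birc3 at 255 FPKM and 160.0 FPKM. The death adaptor gene Fadd was 1.60-fold lower.

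Among transcription factors that p38 or its downstream kinases phosphorylate, Creb1 had 25.2 FPKM in PBS and 15.5 FPKM in α-DR3, which is 1.63-fold lower. Mef2c had 11.1 FPKM in PBS and 15.7 FPKM in α-DR3, a log2 ratio of 0.49 that was -0.0036 with equal sums.

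The listed genes whose pair of means lay closest to those of a member were found by the distance in log2 FPKM over both group means. Nearest to Map2k3 were Gm3452, Pdcd5 and Pcbp1, at distances of 0.033, 0.070 and 0.072. Nearest to Map2k6 were Zfp367, Pik3r2 and 1110034G24Rik, at 0.058, 0.064 and 0.072. The genes nearest to Dusp2 were farther away, with Pdcd4 at 0.178, Slc16a10 at 0.192 and Tg at 0.232. These distances rest on 2 means per gene.

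The sequences ahead of the transcription starts are shown for Pak1, the gene with the highest ratio, for Dusp2, the gene with the lowest, and for the p38-activating kinases. Each is the run of 250 bases before the RefSeq start on GRCm38.p6, read 5′ to 3′ on the strand of the gene. Capitals mark the core of the cAMP response element (TGACG), the AP-1 motif (TGANTCA) and the GC box (GGGCGG), each on either strand. The full cAMP response element (TGACGTCA) contains this core on both strands and is therefore in capitals too.
Pak1, chr7:97788291-97788540, plus strand: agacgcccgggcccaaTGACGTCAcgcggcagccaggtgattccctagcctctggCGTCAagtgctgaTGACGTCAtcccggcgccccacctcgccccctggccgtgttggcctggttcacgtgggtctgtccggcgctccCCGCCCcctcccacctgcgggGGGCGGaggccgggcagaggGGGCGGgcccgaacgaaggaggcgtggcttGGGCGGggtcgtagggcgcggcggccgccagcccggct
Dusp2, chr2:127335909-127336158, plus strand: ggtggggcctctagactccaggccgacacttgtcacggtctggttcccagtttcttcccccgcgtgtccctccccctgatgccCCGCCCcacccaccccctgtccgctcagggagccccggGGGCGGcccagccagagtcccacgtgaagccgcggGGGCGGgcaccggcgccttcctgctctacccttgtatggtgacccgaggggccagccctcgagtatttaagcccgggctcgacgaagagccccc
Map2k3, chr11:60931804-60932053, plus strand: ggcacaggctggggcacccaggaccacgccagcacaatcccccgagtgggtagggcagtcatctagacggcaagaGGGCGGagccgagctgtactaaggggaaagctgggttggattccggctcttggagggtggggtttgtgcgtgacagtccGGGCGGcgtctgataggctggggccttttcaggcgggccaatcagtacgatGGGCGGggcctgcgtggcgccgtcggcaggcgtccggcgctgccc
Map2k6, chr11:110398852-110399101, plus strand: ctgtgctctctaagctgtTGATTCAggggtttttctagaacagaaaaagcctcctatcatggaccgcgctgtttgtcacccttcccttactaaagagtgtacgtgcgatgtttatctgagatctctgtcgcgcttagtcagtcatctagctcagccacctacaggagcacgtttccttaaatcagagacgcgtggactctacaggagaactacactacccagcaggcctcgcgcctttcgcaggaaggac

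The Pak1 sequence holds 2 full cAMP response elements, starting 234 and 182 bases before the transcription start. Among the 32851 mouse promoter windows of this length, 1.55% held at least 1 such element, and 10 windows held 2 or more. The Dusp2 and Map2k3 sequences each hold 3 GC boxes and no TGACG core, and Pak1 holds 4 GC boxes. GC boxes occurred in 32.7% of all windows. Map2k6 has no GC box and a single AP-1 motif 232 bases before its start, a motif found in 6.75% of windows. Mapk6 and Mapkapk3 have 1 TGACG core each, which 17.8% of windows held. Searches for the κB and CArG motifs, the ETS core CCGGAAG and TATAAA found no match in any of the 6 windows; 3.9%, 1.47%, 6.91% and 12.4% of all windows held them. The GC content was 67.6% for Map2k3 and 50.4% for Map2k6, with a median of 52.4% over all windows. A match of letters is a description of the sequence and not a site.

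The sizes of the 6 ratios depended on the scaling. Each scaling tried lowered all log2 ratios by the same amount, so only the directions of Pak1, Mapkapk3 and Map2k3 could have turned, and they did not. FPKM was not rescaled between libraries. Among the listed genes the median log2 ratio was 0.81 for the higher ones, -0.78 for the lower ones and 0.39 over all. Because listed genes were chosen for differing, the median over all need not be a shift that they share. Setting that median to 0 gave log2 ratios of 1.39 for Pak1, 0.47 for Mapkapk3, 0.18 for Map2k3, -0.95 for Mapk6, -1.45 for Map2k6 and -1.86 for Dusp2. Equal sums over the listed genes shifted all ratios by 0.50 and left Map2k3 at 0.06. These scalings use only genes chosen for differing between the groups, so they cannot decide which scale is right. The size of the Map2k3 ratio is therefore given on the scale of the deposited means only. Il22 made up 16.0% of the summed FPKM of listed genes in PBS and 29.0% in α-DR3, and without it the shift was 0.25 and the log2 ratio of Map2k3 was 0.31. The ratio of Map2k3 to Map2k6 within a group does not depend on such scaling.

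**Figure D5:**
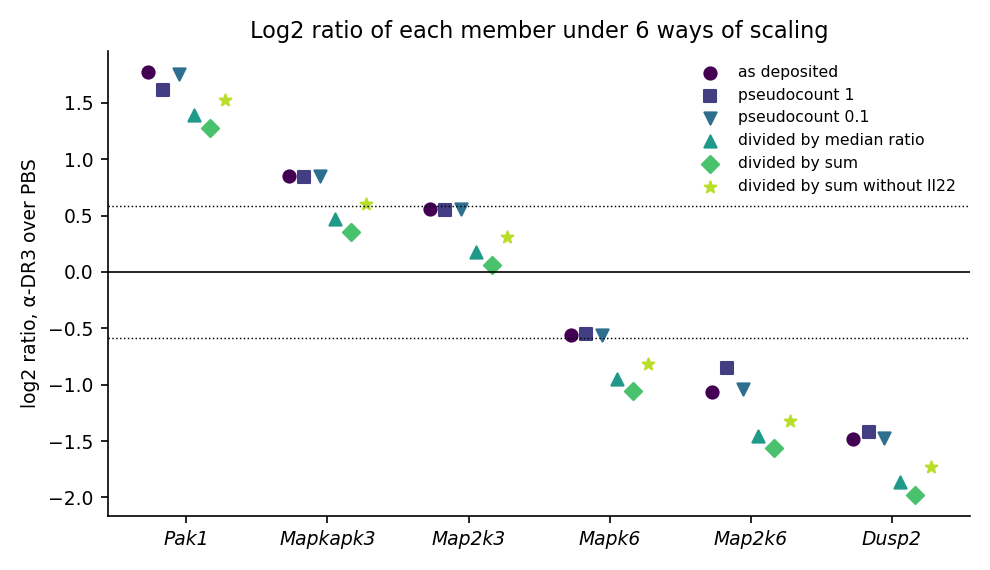
Log2 ratio (α-DR3 over PBS) of each member as deposited, with 1 or 0.1 FPKM added to both means, and after dividing the groups by the median ratio, by their sums over listed genes or by those sums without Il22. All points of Pak1, Mapkapk3 and Map2k3 are above 0 and all points of Mapk6, Map2k6 and Dusp2 below it; the lowest Map2k3 point is 0.06, where the sums were set equal.

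Marker genes of the sorted cells and of other cells differed between the groups as well. Over all listed genes 54.6% were higher in α-DR3 and 45.4% lower. Of 15 ILC3 markers 9 were listed, 7 higher and 2 lower. Among the higher ones were Thy1, with 163 FPKM in PBS and 268 FPKM in α-DR3, and Il22, with 17424 and 44537 FPKM. Among the lower ones was Ncr1, with 460 FPKM in PBS and 279 FPKM in α-DR3. Of 22 myeloid markers 8 were found by their current symbols, all higher in α-DR3 and none at 0. Their summed level was 52.1 FPKM in PBS and 130.0 FPKM in α-DR3. Adgre1 was listed under its older symbol Emr1, with 0.19 FPKM in PBS and 1.175 FPKM in α-DR3. It is not part of this count or sum. Most of the summed level was Zbtb46, at 42.3 FPKM and 71.4 FPKM, so the sum does not give the level of the other myeloid markers. Of these, Lyz2 had 4.09 FPKM and 37.9 FPKM, Cd68 3.1 FPKM and 7.2 FPKM, and C1qb 0.67 FPKM and 4.17 FPKM. Of 6 stromal markers 4 were listed, all higher, with sums of 5.98 FPKM and 14.8 FPKM. Of 10 T and B cell markers only Cd79b was listed, with 10.9 FPKM and 27.2 FPKM, and of 7 epithelial markers only Lgals4, with 12.4 FPKM and 5.28 FPKM. The part of other cells in the levels of Pak1, Mapkapk3 and the other genes was not tested.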

How the data were processed

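RNA of sorted large intestinal ILC3s was sequenced in 4 libraries, 2 per group. Per the labels and the study's methods, the authors used STAR 2.5 (genome GRCm38.p5) for paired-end reads of 50 bases, RSEM 1.2 with GENCODE M16 for gene levels (the release as stated, not checked against the table) and edgeR 3.18.1 for the comparison. The authors deposited mean FPKM values per group and a mean log2 CPM over all libraries for 2179 genes, which were used here, with gene lengths. The fold change, likelihood ratio, p-value and FDR columns of the authors' comparison were not used, except to check that each listed p-value was under 0.05. The table had 0 further columns of single samples. Groups were taken from the sample titles, and the column headed wt was read as PBS, the only other group of the labels.

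Ratios of group means were computed without a pseudocount, and a ratio of at least 1.5 either way, the fold limit of the study, was counted. No test was made, because the deposited columns hold means over replicates. Single-library FPKM that accompany the paper were not used here. The script was tested on simulated data. Members and gene lists were chosen with earlier results of these data known. Some genes of these lists and a motif that was searched are not reported here. Named are the members, listed genes of these lists, and the 3 genes nearest to Map2k3, Map2k6 and Dusp2. Coordinates and transcripts came from GENCODE M21, which held 2149 of the 2179 identifiers, and promoters from RefSeq on GRCm38.p6, with entries for all 6 genes. Where a gene had several starts, the start nearest to that of GENCODE was taken. Alternatives were pseudocounts, other scalings, other fold limits, a filter on level and a shorter list. Python 3.11.15, numpy 2.4.6 and pandas 2.3.3 were used.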

Additional observations from a re-analysis of the deposited data

How the results depend on the processing

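Each scaling lowered all log2 ratios by 1 constant, so it could not change the direction of a gene with a lower mean, and an equal pseudocount in both groups could change none. Of the 3 genes with a higher mean, each had a log2 ratio above the largest shift, 0.50, with Map2k3 nearest to it. Of the 6 genes, 2 were past the limit upward and 2 downward with the deposited means, and 1 upward when the median ratio was set to 0, when the sums over listed genes were set equal, or with a limit of 2. For the MAPK list the upward count was 6 as deposited, 3 under each of these alternatives and 5 with the sums without Il22. It was 4 with a minimum level of 5 FPKM, 4 without the atypical phosphatases and scaffolds, and 13 with a limit of 1.2. No share over all listed genes was computed for the sums without Il22 or for the minimum level, so nothing is read from those counts. Mapk6 was past the limit downward under each of the scalings, the sums without Il22 included, which gave 3 genes lower in place of 2. The ratio of Map2k3 to Map2k6 was 8.72 in PBS and 23.0 in α-DR3 with 1 FPKM added, and 9.92 and 30.1 with 0.1 FPKM added. As a mean over both groups it was 16.9 from FPKM and 12.5 from CPM per kilobase of the listed gene length. This last alternative and the sums without Il22 were chosen after seeing the data. No paired analysis was possible because the deposited columns, the only values used here, are means over the replicates. With the single-library FPKM that accompany the paper it was not done, and neither was leaving out a library. The closeness of Map2k3 and Mapk6 to the limit and the low abundance of Map2k6 limit what their ratios show, since no error was computed for them.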

Other observations

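The deposited table was compared with GENCODE M21, a later release than the one the study's methods name. Of the 2149 identifiers also held by GENCODE M21, 1962 carried a lower version number than in M21 and 187 the same one, and 1940 had the same symbol. For the members the version was 3 against 9 for Map2k3 and 5 against 11 for Map2k6, while for Dusp2 it was 6 in both. The table also has a gene status column. Whether it was made with GENCODE M16, as the methods state, is not settled by these values, since M16 was not used here. Whether the release changed the level of any of these genes was not tested.

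Dusp8 stood in the table under 2 identifiers. ENSMUSG00000037887.4 had 3.83 FPKM in PBS and 5.49 FPKM in α-DR3 (1.43-fold higher), and ENSMUSG00000043186.2, which GENCODE M21 does not hold, had 9.66 FPKM and 13.9 FPKM (1.44-fold higher).

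Mapk10, best known from the brain, was the listed MAP kinase with the second highest level in α-DR3 after Mapk6, at 23.0 FPKM beside 14.5 FPKM for Mapk14. In PBS their levels were 11.9 FPKM and 9.70 FPKM. Mapk10 was singled out after its values were seen.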
